A study of Danio rerio with 6 samples.

Results

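Of the 1920 wells of sorted cells from injured zebrafish muscle, 1105 passed the gates described here, and 157 of these were rich in transcripts of the invariant chain genes cd74a and cd74b. They were proposed as antigen-presenting cells and are called cd74-high wells throughout. A well entered the gates with at least 1000 gene transcripts, with npsn plus EPX (granulocyte genes) under 0.2% of its transcripts and with grna.2 under 0.5%. It was cd74-high when cd74a plus cd74b reached at least 2 transcripts and 0.05% of the total. The wells set against them were the 717 gated wells of the same libraries with 0 transcripts of both genes (cd74-zero), and 231 wells lay between. The wells were chosen by their measured cd74a and cd74b counts, so these levels are given only as a description.

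The study followed macrophages of larval zebrafish through the repair of a muscle wound. All groups were Tg(mpeg1:mCherry) larvae of the TL strain raised in PTU, which blocks pigment. In them the mpeg1 promoter drives mCherry in macrophages, though it is also known to be active in B cells of zebrafish. Live mCherry-positive cells were sorted singly, 384 wells to a plate, for SORT-seq, a plate method that reads the 3' ends of transcripts. The uninjured library came from whole larvae at 4 dpf (days post fertilization). In the injured groups the dorsal myotome was punctured with a 30-gauge needle at 4 dpf and the wound region was dissected 1 dpi (days post injury; 2 libraries, age 5 dpf), 2 dpi (1 library, age 6 dpf) or 3 dpi (2 libraries, age 7 dpf). Cells were thus taken from a dissected region after injury but from the whole body without it, and age advanced with time after injury, so these cannot be told apart from injury and time. Whether the replicates stem from separate clutches or days is not given in the labels, and the p-values reflect how far these libraries spread, which may be technical.

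The invariant chain, CD74, is a chaperone of MHC class II. It binds newly made class II alpha and beta chains in the endoplasmic reticulum, blocks their groove and sorts them to endosomes. There, cathepsins degrade the chain in steps so that antigen peptides can be loaded. Dendritic cells, B cells and some macrophages carry class II constitutively or after activation. Zebrafish have a pair of invariant chain genes, cd74a and cd74b.

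Wells of at least 1000 transcripts held 1339894 to 4461681 transcripts per injured library and 8311064 in the uninjured library. The cd74-high wells of an injured library had median totals of 3696 to 11228 transcripts, against 3351 to 11499 in the cd74-zero wells, and in 4 of the 5 libraries the cd74-high median was the higher. The 1 dpi replicate 2 library stood apart in holding only 4 cd74-high wells, and results that turn on it are given without it as well. No 2 wells held the same values, and the replicate pairs of 1 dpi and 3 dpi differed beyond counting noise (chi-square of 14.2 and 23.7 for each degree of freedom). Plate positions name the wells, so all 384 names recur in every library and do not show shared cells.

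The share of gated wells that were cd74-high was 8.96% in the uninjured library (25 wells; exact 95% binomial interval 5.88 to 12.9%). It was 5.83% at 1 dpi replicate 1 (14 wells; 3.23 to 9.59%) and 2.23% at 1 dpi replicate 2 (4 wells; 0.612 to 5.62%). It was 18.5% at 2 dpi (53 wells; 14.2 to 23.5%), 20.1% at 3 dpi replicate 1 (38 wells; 14.6 to 26.5%) and 22.9% at 3 dpi replicate 2 (48 wells; 17.4 to 29.1%). Both 3 dpi libraries lay above both 1 dpi libraries, and the single 2 dpi library lay near the 3 dpi ones. The mean share was 21.5% ± 1.95 at 3 dpi and 4.03% ± 2.55 at 1 dpi (SD, n = 2 each), a difference of 17.4 percentage points. The share is made of the counts that chose the wells, so it is given with no test. These intervals cover counting error only, and in sorted wells a share does not separate more such cells from more cd74 RNA per cell.

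**Figure D1:**
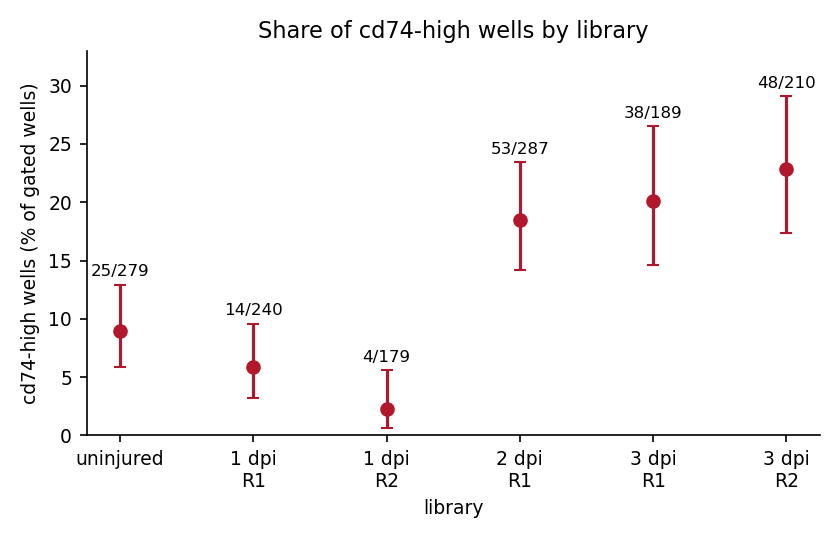
The plot gives the percentage of gated wells that were cd74-high (y axis) in each library (x axis), with exact 95% binomial intervals and the counts of wells above them. The 2 dpi and 3 dpi libraries sit between 18.5% and 22.9%, above the 1 dpi libraries at 5.83% and 2.23% and the uninjured library at 8.96%.

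Both invariant chain genes were found together in most cd74-high wells. In 123 of the 157 wells both genes had a transcript, 13 wells had cd74a alone and 21 had cd74b alone. cd74a exceeded cd74b in 72 wells, cd74b exceeded cd74a in 71, and they were equal in 14. Summed over the wells, cd74a gave 1256 and cd74b 1065 transcripts, so 54.1% of invariant chain transcripts came from cd74a. By library the share from cd74a was 50.7% and 63.4% in the 1 dpi pair, 53.6% at 2 dpi, and 56.9% and 52.8% in the 3 dpi pair, close to even throughout. The 2 genes thus kept nearly equal weight at each time, although the 63.4% rests on 30.0 transcripts.

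The level of cd74a plus cd74b per cd74-high well had a median of 4 transcripts at 1 dpi replicate 1 (range 3 to 14) and 6.5 at 1 dpi replicate 2 (5 to 12). The median was 19 at 2 dpi (5 to 90.5), 8 at 3 dpi replicate 1 (2 to 78.4) and 5 at 3 dpi replicate 2 (2 to 19). The upper end of the range was held by wells of 2 dpi and 3 dpi replicate 1. As a percentage of all transcripts the library medians were 0.0981% and 0.0802% in the 1 dpi pair, 0.203% in the 2 dpi library, and 0.149% and 0.105% in the 3 dpi pair, and the highest well reached 1.52%. Over all 157 wells, 102 reached 0.1% and 12 exceeded 0.5%. The wells just inside the rule had 0.0505% and 0.0518%, and those just outside had 0.0498% and 0.0497%, so the level was continuous across the limit. Of the 231 wells between, 140 had under 2 transcripts and 91 had 2 or more but too small a share. Wells gated as granulocytes, which should lack the invariant chain, had a cd74a or cd74b transcript in 21 of 232 cases (9.05%, exact 95% interval 5.69 to 13.5%), never more than 3, at a median total of 4199 transcripts against 5744 in the cd74-high wells.

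**Figure D2:**
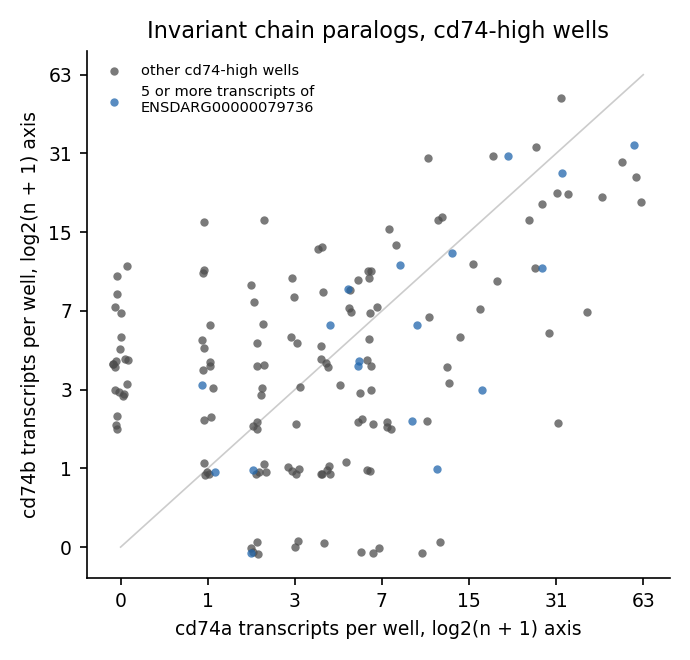
Each point is a cd74-high well, with its cd74a transcripts on the x axis and its cd74b transcripts on the y axis, both on a log2(n + 1) scale. Blue points are wells with at least 5 transcripts of the gene ENSDARG00000079736, which is described further on, and grey points are the other wells. Time after injury is not marked. Wells scatter on both sides of the diagonal (72 with more cd74a, 71 with more cd74b). By their library values, not by colour, the wells with the highest counts belong to the 2 dpi and 3 dpi libraries.

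The class II partners of the invariant chain were higher in the cd74-high wells. mhc2daa encodes the class II DA alpha chain and mhc2dab the DA beta chain, and neither was used to choose the wells. In cd74-high wells mhc2daa was detected in 4 of 14 and 1 of 4 wells at 1 dpi, in 30 of 53 at 2 dpi, and in 11 of 38 and 18 of 48 at 3 dpi. In cd74-zero wells it was detected in 6 of 212 and 4 of 156 wells at 1 dpi, in 6 of 148 at 2 dpi, and in 2 of 87 and 11 of 114 at 3 dpi. The share was higher in the cd74-high wells of all 5 libraries, at 40.8% (64 of 157) overall against 4.04% (29 of 717), and the ranges of the library shares did not overlap. The wells between had mhc2daa in 22 of 231 cases (9.52%) and granulocyte-gated wells in 17 of 232 (7.33%). The share in cd74-zero wells was below both, and whether it is background was not tested.

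mhc2dab was likewise most frequent in the cd74-high wells, in fewer of them, but its granulocyte-gated share lay below its cd74-zero share. In cd74-high wells it was detected in 3 of 14 and 1 of 4 wells at 1 dpi, in 22 of 53 at 2 dpi, and in 5 of 38 and 6 of 48 at 3 dpi. In cd74-zero wells it was detected in 2 of 212 and 0 of 156 wells at 1 dpi, in 3 of 148 at 2 dpi, and in 1 of 87 and 0 of 114 at 3 dpi. Overall this was 37 of 157 cd74-high wells (23.6%), against 6 of 717 cd74-zero wells (0.837%), with 12 of 231 wells between (5.2%) and 1 of 232 granulocyte-gated wells (0.431%). At equal depth, with every well thinned at random to 1000 transcripts, mhc2daa remained detected in 21 of 157 cd74-high wells (13.4%, exact 95% interval 8.47 to 19.7%), against 8 of 717 cd74-zero wells (1.12%, 0.483 to 2.19%). mhc2dab was detected in 6 of 157 thinned cd74-high wells (3.82%, 1.42 to 8.13%) and in 0 of 717 thinned cd74-zero wells, where the exact interval reaches up to 0.513%. By library, the thinned level summed over a class II gene list was higher in the cd74-high wells of 4 of 5 libraries. At 1 dpi replicate 2 it was 0 per cd74-high well against 0.0385 per cd74-zero well.

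At that depth neither class II gene passed the filter on low counts, so the test of them rests on the full counts. Wells of each kind were summed within each library, and edgeR's quasi-likelihood test with the library as a block compared the sums, with Benjamini-Hochberg adjustment over all genes tested. Without thinning it called 17 of 4312 genes at an adjusted p under 0.05, or 0.394% (8 higher, 0.186%, and 9 lower, 0.209%). Among the 8 higher genes, mhc2daa had a log2 change of 4.04 (SE 0.53, edgeR adjusted p = 8.15e-06) and mhc2dab one of 5.08 (SE 0.74, edgeR adjusted p = 5e-05), and both were higher in 5 of 5 libraries. Both passed the filter on low counts only through the cd74-high sums, with 177 and 77 transcripts there, against 33 and 7 in the larger cd74-zero sums, so a tested class II gene had to differ. They were the only 2 members of the 22-gene class II list with enough counts to test, of 12 present in the files. Wells of at least 2000 transcripts thinned to 2000 gave mhc2daa a log2 change of 3.15 (edgeR adjusted p = 0.000734). Without 1 dpi replicate 2 the full counts gave mhc2daa 4.11 and mhc2dab 4.93 (edgeR adjusted p = 2.79e-05 and 0.000132), and without 2 dpi neither had enough counts to test. Thinned to 1000 with no filter on low counts, mhc2daa had 2.84 and did not pass (edgeR adjusted p = 0.103). ciita, the class II transactivator, was detected in 2 of 157 cd74-high wells and 10 of 717 cd74-zero wells, too few to compare.

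**Figure D3:**
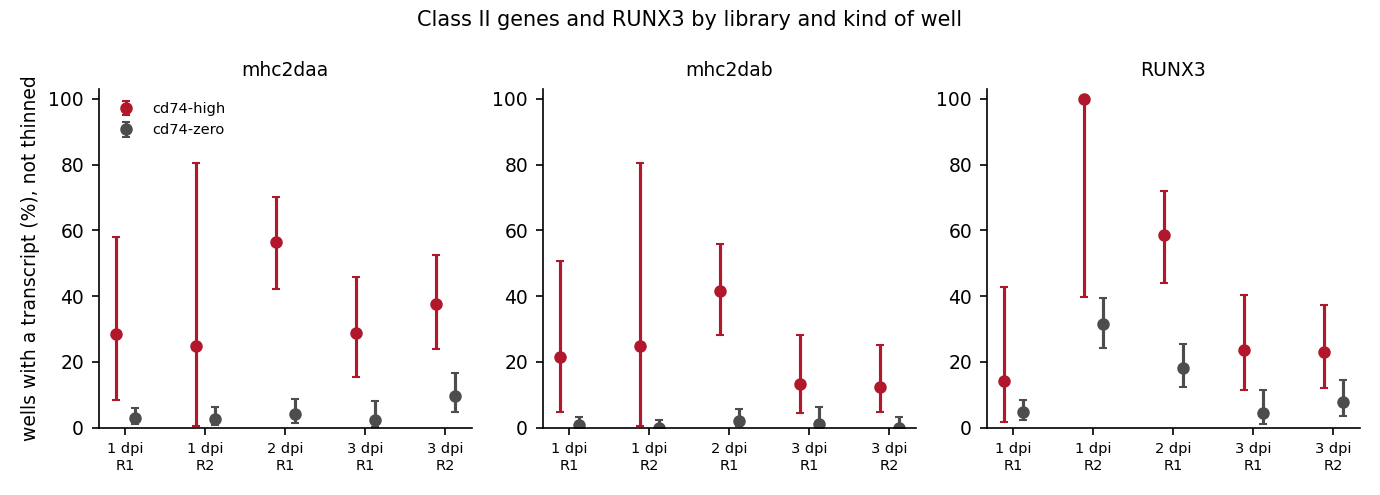
The panels give the percentage of wells with a transcript (y axis, not thinned, with exact 95% binomial intervals) for mhc2daa, mhc2dab and RUNX3 in the cd74-high (red) and cd74-zero (grey) wells of each injured library (x axis). The cd74-high point lies above the cd74-zero point in every library of all 3 panels, with mhc2daa at 56.6% against 4.05% at 2 dpi.

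A class II transcript of either gene was present in 77 of the 157 cd74-high wells (49%). By library it was present in 4 of 14 and 1 of 4 wells at 1 dpi, in 37 of 53 at 2 dpi, and in 15 of 38 and 20 of 48 at 3 dpi. The 2 dpi library, the deepest of the injured ones, had the most. Cd74-high wells above the median cd74 percentage of 0.144% had a class II transcript in 50 of 78 cases (64.1%), against 27 of 79 (34.2%) at or below it. Of the 78 wells above it, 36 came from 2 dpi. Within libraries, the share with a class II transcript above and below was 28 of 36 against 9 of 17 wells at 2 dpi, 9 of 22 against 6 of 16 at 3 dpi replicate 1, and 12 of 18 against 8 of 30 at 3 dpi replicate 2. At 1 dpi replicate 1 it was 1 of 2 against 3 of 12, and 1 dpi replicate 2 had no well above. At 3 dpi replicate 1 the shares were thus close (40.9% against 37.5%).

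The label antigen-presenting cells was checked against markers of the cell types the sort could hold. MPEG1 or MFAP4, both genes of zebrafish macrophages, had a transcript in 139 of 157 cd74-high wells (88.5%). The leading MPEG1 copy, ENSDARG00000055290, was detected in 111 of 157 cd74-high wells and 459 of 717 cd74-zero wells, against 15 of 232 granulocyte-gated wells. The leading MFAP4 copy, ENSDARG00000090783, was detected in 101 of 157 cd74-high and 527 of 717 cd74-zero wells, and its log2 change was -0.01 (edgeR adjusted p = 0.993). The mCherry reporter itself had a transcript in 42 of 157 cd74-high wells (26.8%) and in 195 of 717 cd74-zero wells (27.2%). Of defining lymphocyte genes, PAX5, ZAP70 and cd8a were at 0 of 157 cd74-high wells, against 2, 1 and 2 of 717 cd74-zero wells. ighm was present in 3 cd74-high against 2 cd74-zero wells, cd79a in 3 against 7 and cd37 in 2 against 1. These genes were rare in both kinds of well, and ighm, cd79a and cd37 made up the larger share in the cd74-high wells. Other members of those lists were present, among them on the B cell list the kinase gene SYK in 64 of 157 cd74-high wells against 235 of 717 cd74-zero wells, and the adaptor gene blnk in 46 against 246. On the T and NK cell list il2rb was present in 34 against 108 wells, EOMES in 14 against 3, and RUNX3 in 57 against 99. The summed B cell list gave 0.143 to 0.472 transcripts per thinned cd74-high well, against 0.207 to 0.481 per cd74-zero well. The summed T and NK cell list gave 0.643 to 1.72 against 0.391 to 1.05, and each list was higher in 3 of 5 libraries. The part of these genes in the differences was not tested. The neutrophil gene lyz was at 0 of 157 cd74-high wells and 3 of 717 cd74-zero wells, so that zero says little. Other members of the neutrophil list went both ways. NCF1 was present in 125 cd74-high against 505 cd74-zero wells, the gate gene npsn in 38 against 104 and nccrp1 in 68 against 388. Most cd74-high wells thus held macrophage transcripts, and about as many as held a class II transcript held none that could be detected, so the wells are named here by their rule.

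Each well was thinned to 1000 transcripts for the comparison across all genes, since a 0 count is likelier in a shallow well. After thinning, 876 genes were tested between cd74-high and cd74-zero wells and 18 were called, or 2.05% (5 higher, 0.571%, and 13 lower, 1.48%). The median log2 change of all 876 genes was -0.04, which equal totals and the scaling hold near 0. Of the 18 calls, 10 remained when the wells were thinned with another random draw (20 called then) and 4 remained without thinning, namely cd40, g0s2, ANXA1 and ANXA2. The calls also moved with single libraries, to 9 without 1 dpi replicate 1, 31 without 1 dpi replicate 2, 6 without 2 dpi and 10 without 3 dpi replicate 1, against 17 without 3 dpi replicate 2.

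si:ch73-308b14.1, a gene with no descriptive name, had the smallest adjusted p of the higher genes. Its mean per thinned well was 2.14, 3.25, 7.58, 5.11 and 4 transcripts in the cd74-high wells of 1 dpi replicates 1 and 2, 2 dpi, and 3 dpi replicates 1 and 2. In the cd74-zero wells of the same libraries it was 1.57, 1.44, 2.22, 2.58 and 1.65. It was higher in each library, though 1 dpi replicate 1 of the cd74-high wells fell within the cd74-zero range. Its log2 change was 1.08 (SE 0.14, edgeR adjusted p = 4.35e-11), and without thinning it was 1.14 and did not pass (edgeR adjusted p = 0.0646). It was called in 23 of 28 settings.

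cd40, a costimulatory receptor through which T cells signal to antigen-presenting cells, was the called gene of the costimulation list that was higher. Its mean per thinned well was 0.429, 0.25, 1.36, 0.553 and 0.646 in cd74-high wells, against 0.189, 0.429, 0.5, 0.126 and 0.36 in cd74-zero wells, in the same order of libraries. It was higher in 4 of 5 libraries, and the exception was 1 dpi replicate 2 with its 4 cd74-high wells. Its log2 change was 1.11 (SE 0.31, edgeR adjusted p = 0.0225) after thinning and 1.24 (SE 0.24, edgeR adjusted p = 0.00435) without, where all 5 libraries were higher. The thinned call was lost when any of 4 libraries was left out, with edgeR adjusted p = 0.195 without 1 dpi replicate 1, 0.509 without 2 dpi, 0.581 without 3 dpi replicate 1 and 0.0583 without 3 dpi replicate 2. A cd40 transcript was present in 112 of 157 cd74-high wells and 378 of 717 cd74-zero wells. Of the cd74-high wells, 58 held cd40 and a class II transcript, 54 held cd40 alone, 19 held class II alone and 26 held neither.

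The other members of the costimulation list did not all follow cd40. Of its 9 genes 4 were tested, with 1 higher, 1 lower and a median log2 change of 0.16. Over all 876 genes 0.571% were higher and 1.48% lower, with a median of -0.04. cd83, a glycoprotein of activated dendritic cells and B cells, had means of 1.29, 1.25, 2.23, 1.95 and 2.33 in cd74-high wells, against 1.07, 1.01, 1.57, 1.39 and 1.41 in cd74-zero wells. Every library was higher, but the log2 change of 0.40 did not pass (edgeR adjusted p = 0.382). The tetraspanin cd9b was the lower one (log2 change -1.66, SE 0.38, edgeR adjusted p = 0.00164), in 4 of 5 libraries. Its call was lost without thinning (-1.86, edgeR adjusted p = 0.696). The tetraspanin CD81 had -0.09 (edgeR adjusted p = 0.951). The B7 family genes CD276 and vtcn1 had too few counts to test after thinning.

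Among the remaining higher genes, si:ch211-184m19.3, also with no descriptive name, had 0.214, 0.75, 0.66, 0.684 and 1.17 per thinned cd74-high well, against 0.127, 0.199, 0.257, 0.356 and 0.228 per cd74-zero well. Its log2 change was 1.40 (SE 0.32, edgeR adjusted p = 0.00164), with all libraries higher. sftpbb encodes a surfactant protein B, of the saposin-like lipid-binding family. It had 0.571, 0.75, 0.509, 0.21 and 0.25 per cd74-high well, against 0.0472, 0.0256, 0.25, 0.115 and 0.0965 per cd74-zero well. It passed the filter on low counts mainly through the cd74-high sums, so a higher value was favoured in advance. The log2 change of 1.62 (SE 0.38, edgeR adjusted p = 0.00189) shrank to 0.66 (edgeR adjusted p = 0.625) with another random draw. The chemokine gene ccl35.2 was higher in 4 of 5 libraries, with 5.6 against 1.81 per thinned well at 2 dpi and a log2 change of 0.68 (SE 0.16, edgeR adjusted p = 0.00342). That call too was lost with another draw (0.55, edgeR adjusted p = 0.462). Without thinning, RUNX3, a Runt family transcription factor of lymphocytes and dendritic cells in mammals, was higher by 2.2 (SE 0.38, edgeR adjusted p = 0.000892). It had a transcript in 57 of 157 cd74-high wells and 99 of 717 cd74-zero wells. Of the 4 genes tested without thinning on the list of T and NK cells it was the only one called, beside 0.394% called over all genes.

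Other genes were called without thinning that were not called after it. Among the higher ones, ENSDARG00000001832, with no symbol in the name table, had a transcript in 51 of 157 cd74-high wells (32.5%), against 11 of 717 cd74-zero wells (1.53%), and a log2 change of 5.24 (SE 0.59, edgeR adjusted p = 3.15e-07). si:ch211-214p16.1 was present in 37 of 157 against 33 of 717 wells (4.36, SE 0.36, edgeR adjusted p = 7.24e-10). OGFRL1 had 1.47 (edgeR adjusted p = 0.0436), and the other higher one, ENSDARG00000079736, had 6.23 (edgeR adjusted p = 2.92e-07), with a transcript in 19 of 157 cd74-high wells against 10 of 717 cd74-zero wells, and is described further on. The 3 genes without a descriptive name passed the filter on low counts mainly through the cd74-high sums. Among the lower ones were the fibronectin gene FN1 (-3.31, edgeR adjusted p = 0.00133), present in 5 of 157 against 36 of 717 wells, and the cofilin-like gene cfl1l (-2.85, edgeR adjusted p = 0.00133), present in 10 against 57. si:ch211-284o19.8 (-1.98, edgeR adjusted p = 0.00719) and si:dkey-102g19.3 (-1.47, edgeR adjusted p = 0.033) were found more widely, in 23 and 44 of 157 cd74-high wells, against 216 and 367 of 717 cd74-zero wells. The keratin krt5 had -4.24 (edgeR adjusted p = 1.61e-07), with 14 of 157 against 33 of 717 wells. FN1, cfl1l and krt5 were near the floor in the cd74-high sums, with 18 transcripts of cfl1l against 351 and 26 of krt5 against 1174. They passed the filter on low counts mainly through the cd74-zero sums, so a lower value was favoured in advance.

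**Figure D4:**
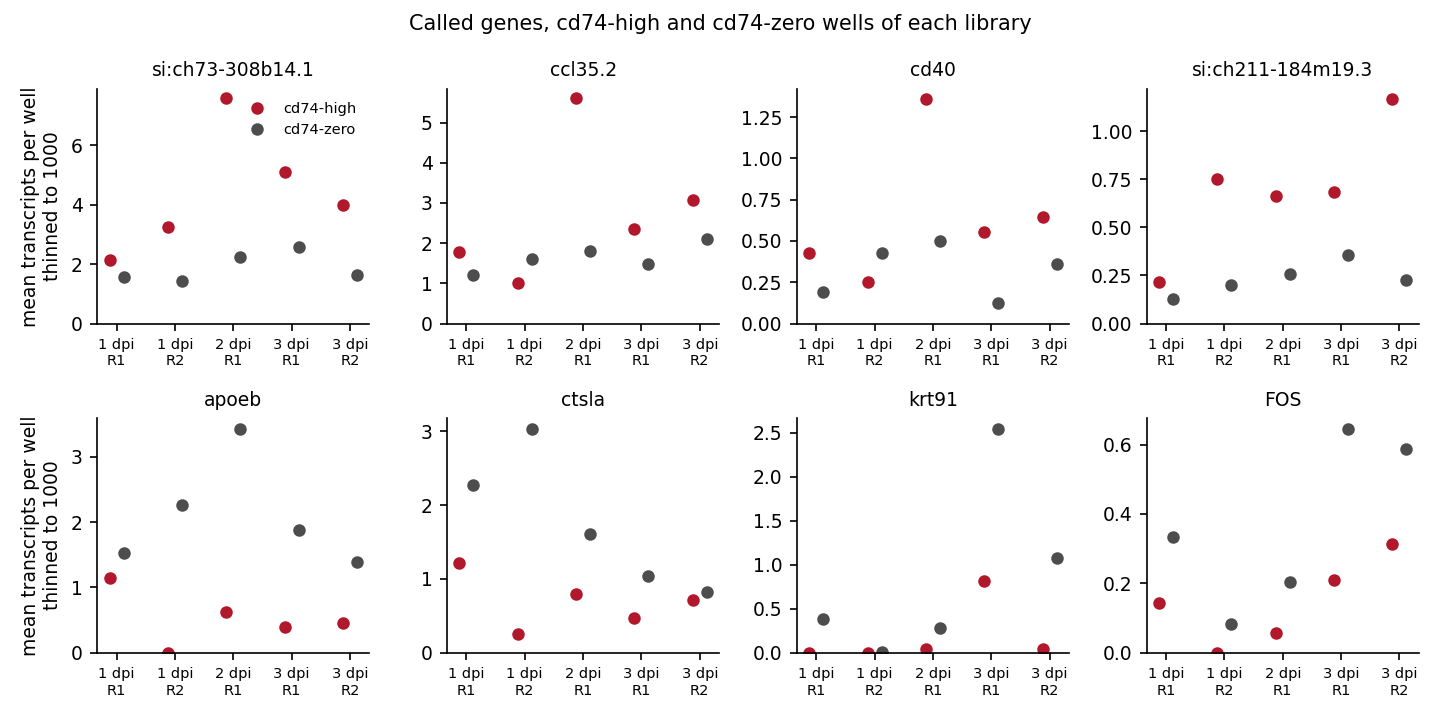
Each panel gives the mean transcripts per well thinned to 1000 (y axis) of a called gene in the cd74-high (red) and cd74-zero (grey) wells of each injured library (x axis). The upper panels are genes that were higher, where ccl35.2 and cd40 run the other way at 1 dpi replicate 2, and the lower panels are genes that were lower in every library.

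The genes that were lower in the cd74-high wells were led by apoeb, an apolipoprotein E that carries lipid and marks microglia in zebrafish. Its mean per thinned well was 1.14, 0, 0.623, 0.395 and 0.458 in cd74-high wells, against 1.53, 2.26, 3.42, 1.87 and 1.40 in cd74-zero wells. All cd74-high values lay below all cd74-zero values. The log2 change was -1.98 (SE 0.22, edgeR adjusted p = 1.96e-15). A transcript was present in 53 of 157 cd74-high wells and 286 of 717 cd74-zero wells, so the share with apoeb was nearer than the level. The call was lost with another draw of the thinning (-1.59, edgeR adjusted p = 0.379) and without thinning (-1.64, edgeR adjusted p = 0.814). Of the 8 tested genes on the microglia and apolipoprotein list, apoeb was the only one called, beside 2.05% called over all genes. The median log2 change of the list was -0.47. The summed level was lower in 4 of 5 libraries (0.25 to 10.6 per thinned cd74-high well, against 7.28 to 11.4 per cd74-zero well).

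ctsla, a lysosomal cathepsin L, had 1.21, 0.25, 0.792, 0.474 and 0.708 per thinned cd74-high well, against 2.28, 3.04, 1.61, 1.03 and 0.825 per cd74-zero well, and fell with a log2 change of -1.06 (SE 0.21, edgeR adjusted p = 0.000105). It was lower in each library, by least at 3 dpi replicate 2. Without thinning the call was lost (-0.74, edgeR adjusted p = 0.651), and ctsla was called in 15 of 28 settings. The cathepsins that process the invariant chain were otherwise mixed. Of 11 tested genes on the list of loading proteases and reductase, ctsla was lower, none was higher and the median log2 change was 0.01. The closest to a higher call were ctsl.1, another cathepsin L (log2 change 1.03, edgeR adjusted p = 0.302), and ctss2.2, a cathepsin S (0.69, edgeR adjusted p = 0.163). Cathepsin S is the enzyme that makes the last cuts of the chain in mammals, and ctss2.2 had a transcript in 132 of 157 cd74-high wells and 508 of 717 cd74-zero wells. On the lysosome list 1 of 26 tested genes was lower, which was again ctsla, with a median of -0.07. Over all 876 genes tested, 1.48% were lower.

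The other called genes were lower by a log2 change of -0.84 to -2.46, besides the keratin krt91. g0s2, an inhibitor of triglyceride lipase in mammals, had -2.46 (SE 0.53, edgeR adjusted p = 0.000682). Its means were 0.214, 0, 0.0377, 0 and 0.0417 per thinned cd74-high well, against 0.321, 0.237, 0.338, 0.276 and 0.114 per cd74-zero well, and it was also called without thinning. After thinning it passed the filter on low counts mainly through the cd74-zero sums, so a lower value was favoured in advance. The phospholipid-binding annexins ANXA1 (-2.1, SE 0.51, edgeR adjusted p = 0.00342) and ANXA2 (-1.67, edgeR adjusted p = 0.00125) were called with and without thinning. Like g0s2, ANXA1 passed the filter after thinning mainly through the cd74-zero sums, so its lower value there was favoured in advance. ANXA2 was lower in 4 of 5 libraries and was called in 24 of 28 settings, more often than any other of the 18 genes. FOS, an immediate early transcription factor, had -1.44 (edgeR adjusted p = 0.0126). The granulin gene grna.1 (-1.06, edgeR adjusted p = 0.00715), the interleukin-6 family cytokine m17 (-1.29, edgeR adjusted p = 0.0211), nccrp1 (-1.34, edgeR adjusted p = 0.0309), the scaffold gene ahnak (-1.27, edgeR adjusted p = 0.0454) and the ferritin heavy chain fth1a (-0.84, edgeR adjusted p = 0.00413) made up the rest.

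Among the keratins, krt91 was called lower after thinning, and krt4 and krt5 without it. The most widely detected one, krt8, did not pass (log2 change -0.69, edgeR adjusted p = 0.129), with a transcript in 108 of 157 cd74-high wells and 569 of 717 cd74-zero wells. krt91 had means of 0, 0, 0.0377, 0.816 and 0.0417 per thinned cd74-high well, against 0.387, 0.00641, 0.277, 2.54 and 1.08 per cd74-zero well (log2 change -2.65, SE 0.38, edgeR adjusted p = 9.06e-10). After thinning it too passed the filter on low counts mainly through the cd74-zero sums. Without thinning its call was lost (-4.46, edgeR adjusted p = 0.537). The share of wells with krt91 was not lower, at 24 of 157 cd74-high wells against 83 of 717 cd74-zero wells, and the difference lay in the transcripts per well with krt91, with 156 in the 24 wells against 3415 in the 83. krt4 was alike, at 20 of 157 wells and 84.2 transcripts against 87 of 717 wells and 2759 transcripts (log2 change -4.22 without thinning, edgeR adjusted p = 1.27e-09). On the keratinocyte list 2 of 7 tested genes, krt91 and ANXA1, were lower and none higher, beside 1.48% lower over all 876 genes. The median of the list was -0.79. Summed levels were 3.25 to 7.68 per thinned cd74-high well, against 5.06 to 12.2 per cd74-zero well, lower in 5 of 5 libraries. Summed neutrophil markers, without the gate genes npsn and EPX, were lower in 5 of 5 libraries as well (1.75 to 2.93 against 2.31 to 3.15). Of 6 tested genes on that list nccrp1 was lower. The gate gene npsn itself was more frequent in the cd74-high wells, at 38 of 157 against 104 of 717 cd74-zero wells. EPX was present in 29 of 157 against 137 of 717. Summed fibroblast markers were also lower in 5 of 5 libraries (0 to 0.237 against 0.0641 to 1.15, none tested). The epithelial gene epcam had a transcript in 9 of 157 cd74-high wells and 50 of 717 cd74-zero wells. The part of these markers in the differences was not tested beyond what follows. Leaving out wells with at least 5% of transcripts from markers of other tissues, an alternative chosen after the data were seen, gave 14 called genes, 13 of them among the 18. cd40 had 1.09 there (edgeR adjusted p = 0.0304), si:ch73-308b14.1 had 1.05 and apoeb had -2.00. FOS (-1.07, edgeR adjusted p = 0.173), ahnak (-1.13, edgeR adjusted p = 0.139) and fth1a (-0.43, edgeR adjusted p = 0.472) were no longer called, and krt91 and ANXA1 were not tested there.

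No gene of the dendritic cell list was called. Summed over the dendritic cell list, the level was 3.71 to 5.00 per thinned cd74-high well, against 2.89 to 3.80 per cd74-zero well, and higher in 5 of 5 libraries. Much of this sum was cd83, also on the costimulation list, and it included SPI1 of the macrophage list, so it is not particular to dendritic cells. Among rarer members, BATF3 was present in 4 of 157 cd74-high against 11 of 717 cd74-zero wells, and CCR7 in 5 against 27. XCR1 was present in 23 against 54 and ZBTB46 in 17 against 45. The 5 genes tested after thinning did not pass, and their median log2 change was 0.22. flt3, the receptor of the dendritic cell growth factor FLT3 ligand in mammals, had a transcript in 17 of 157 cd74-high wells (10.8%) and 23 of 717 cd74-zero wells (3.21%). Without thinning, flt3 had a log2 change of 2.46 (edgeR adjusted p = 0.124), ID2 one of 1.24 (edgeR adjusted p = 0.0526) and IRF8 one of 1.25 (edgeR adjusted p = 0.291), and none was called. Class I genes were likewise higher in summed level in 5 of 5 libraries (1.13 to 1.45 against 0.783 to 1.1), with neither of the 2 tested genes called. On the macrophage list ccl35.2 was higher and the other tested genes of 16 were not called, with a median of -0.14. Over all genes tested, 0.571% were higher. No gene was called on the lists of inflammatory mediators (9 tested, median -0.34), oxidative phosphorylation (25 tested, -0.27), cell cycle (3 tested, -0.19) or interferon response (1 tested, -0.04).

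The cd74-high wells were not uniform. In 18 of them (1 of 14 and 0 of 4 at 1 dpi, 7 of 53 at 2 dpi, 6 of 38 and 4 of 48 at 3 dpi) the gene ENSDARG00000079736, which has no symbol in the name table, had at least 5 transcripts. This was so in 1 of 231 wells between, in 1 of 717 cd74-zero wells and in 0 of 232 granulocyte-gated wells. The split was made after the values were seen, so the contents of these wells are described with no test. All 18 held cd74a and 17 held cd74b, and a class II transcript was present in 13 of 18, against 64 of the other 139 cd74-high wells.

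Several transcripts were more frequent in the 18 wells than in the other cd74-high wells. sftpba, the second surfactant protein B gene, was present in 18 of 18, against 3 of 139 other cd74-high wells. EOMES, a T-box factor of T and NK cells in mammals, was present in 12 of 18 against 2 of 139. IKZF2, an Ikaros family factor, was present in 11 against 2, and SOX5 in 10 against 3. RUNX3 was present in 13 of 18 against 44 of 139, the chemokine receptor gene ccr2 in 10 against 12, and flt3 in 6 against 11. The granulocyte gene npsn, which the gates limit but do not exclude, was present in 12 of 18 against 26 of 139, and EPX in 5 against 24, and their part in what sets these wells apart was not tested. Beta-actin (actb2) averaged 54.5 transcripts per thinned well in the 18 wells, against 30.9 in the other cd74-high wells, and the actin-binding profilin pfn1 averaged 10.3 against 3.42.

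Macrophage transcripts were mixed in these 18 wells. MPEG1 or MFAP4, counting all copies, was present in 9 of 18, against 130 of 139 other cd74-high wells. The transcription factor gene SPI1 was present in 14 of 18 against 95 of 139, ccl35.2 in 14 against 123, lgals9l1 in 9 against 56 and cd68 in 10 against 119. The leading MFAP4 copy was present in 1 of 18, against 100 of 139 other cd74-high wells, and the leading MPEG1 copy in 6 of 18 against 105 of 139. CMKLR1, a chemerin receptor of macrophages, was present in 0 of 18 against 106 of 139, ctss2.2 in 5 against 127, and cd40 in 5 against 107. ZAP70 and cd79a, defining genes of T cells and B cells, were at 0 in all 18. They were present in only 0 and 3 of the other 139 as well, so these zeros say little. On the T and NK cell list il2rb was present in 8 of 18 against 26 of 139. No cell type name is given to these wells. With wells of at least 5 ENSDARG00000079736 transcripts left out of both kinds, an alternative chosen after the data were seen, 16 genes were called after thinning, cd40 had a log2 change of 1.22 (edgeR adjusted p = 0.00986), and mhc2daa had 4.15 without thinning (edgeR adjusted p = 3.63e-06). For mhc2daa the filter on low counts again favoured a higher value in advance.

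**Figure D5:**
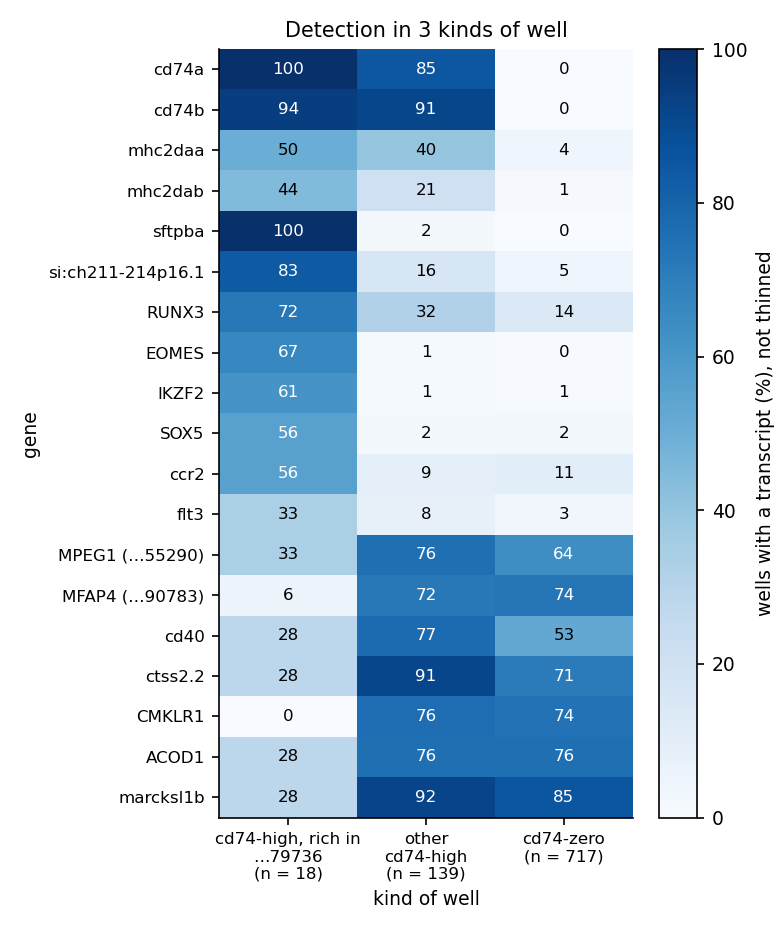
The grid gives the percentage of wells with a transcript (colour and printed value, not thinned) of each gene (y axis) in the 18 cd74-high wells rich in ENSDARG00000079736, the other 139 cd74-high wells and the 717 cd74-zero wells (x axis). sftpba, EOMES, IKZF2 and SOX5 are frequent in the 18 wells and rare in the other columns, while the leading MFAP4 copy (71.9% and 73.5%) and CMKLR1 (76.3% and 74.5%) are about as frequent in the other 139 wells as in the cd74-zero wells.

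Within the cd74-high wells, 3 dpi was compared with 1 dpi. Of 877 genes tested with edgeR's quasi-likelihood test, 1 was called, or 0.114%, and it was lower. si:dkey-6n3.3, a gene with no descriptive name, had means of 0.0526 and 0.208 per thinned well at 3 dpi, against 2 and 0.75 at 1 dpi, with 0.189 at 2 dpi (log2 change -3.14, SE 0.76, edgeR adjusted p = 0.0324). It passed the filter on low counts only through the 1 dpi sums, so a lower value at 3 dpi was favoured in advance. In cd74-zero wells, which were not part of this test, its means were 0.23 and 0.0965 at 3 dpi, against 2.25 and 2.30 at 1 dpi. The call rested on all libraries, since leaving out any of the 5 ended it. With 18 cd74-high wells at 1 dpi the test was weak: on simulated counts it found 4% of 2-fold and 30% of 4-fold changes, where the comparison of cd74-high with cd74-zero wells found 75% and 100%. The simulated counts had the same spread for every gene and no differences between libraries beyond their totals. The shares found may therefore be too high for the real data.

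The difference between cd74-high and cd74-zero wells was also compared between 3 dpi and 1 dpi, as an interaction in the same kind of fit. Of 876 genes 1 was called (0.114%), which was ctsl.1. Its means per thinned well at 3 dpi were 1.55 and 1.52 in cd74-high wells, against 0.379 and 0.509 in cd74-zero wells. At 1 dpi they were 0.857 and 0 in cd74-high wells, against 1.12 and 1.15 in cd74-zero wells. The cd74-high wells thus held more ctsl.1 at 3 dpi and less at 1 dpi, and the 2 dpi wells (2.34 against 0.696) resembled those of 3 dpi. The interaction was 2.52 on the log2 scale (SE 0.58, edgeR adjusted p = 0.0139), and it was called in 4 of 10 settings. It was not called without thinning (2.28, edgeR adjusted p = 0.852), by DESeq2 or when any library other than 2 dpi was left out. At 1 dpi replicate 2 the value of 0 came from 4 wells, in 1 of which ctsl.1 was present before thinning.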

How the data were processed

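The deposited files hold expected counts of transcripts per gene and well. The authors sorted single cells into 384 wells per library and prepared them by SORT-seq (the CEL-Seq2 protocol with robots), per the labels' protocols. The submitters' processing notes name BWA and the Zv9 genome build, and the sources used here do not give the counting program or annotation. Low values are whole and higher ones are slightly above whole numbers. Gene symbols came from a name table that matched 19001 of 25130 gene identifiers (75.6%), and many symbols are in human style. Zv9 coordinates and sequences were not used here. Genes with near-identical copies, such as MPEG1, MFAP4 and the keratins, may share reads.

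Spike-in molecules (1.19 to 16.1% of a library) were left out. The sort aimed at 1 cell per well and no doublet caller was run, so wells with more than 1 cell were not looked for. Each gated well was thinned at random to 1000 transcripts, rounded to whole counts and summed by library and kind of well. edgeR 4.0.16 in R 4.3.3 fitted the sums (TMM, filterByExpr, robust quasi-likelihood, library as a block), without cd74a, cd74b, npsn, EPX and grna.2. The call was an adjusted p under 0.05 (Benjamini-Hochberg over all genes tested). The alternatives were no thinning, thinning to 2000, another random draw, RLE or library size scaling, DESeq2 1.42.0, no filter, no library block, other limits on wells, and each library left out. Shares were computed with Python 3.11.15, pandas 2.3.3 and scipy 1.17.1. On simulated counts for the 876 genes, the comparison of cd74-high with cd74-zero wells found 75% of 2-fold and 100% of 4-fold changes, and called 4 unchanged genes. The simulation used a common spread for all genes and no library differences beyond the totals, so these shares may be too high for the real data. Wells are not replicates, and every test ran over libraries.

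Genes were named by a rule: up to 12 called genes per direction with the largest change, at an average log2 CPM of at least 5 and the same direction in every library, plus tested class II and costimulation genes and leading markers. ccl35.2, fth1a, FN1 and ENSDARG00000079736, and ANXA2 after thinning, fall outside it and were named after their values were seen. The members, gene lists and comparisons were chosen with earlier results of these data known, among them higher cd74a and cd74b at 3 dpi than at 1 dpi over all sorted cells.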

Additional observations from a re-analysis of the deposited data

Results flagged for a closer look

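The difference between cd74-high and cd74-zero wells in ctsl.1 differed between 3 dpi and 1 dpi by 2.52 on the log2 scale in edgeR's test of that difference (adjusted p = 0.0139). Without 1 dpi replicate 1 it was 11.14, since the cd74-high wells of 1 dpi replicate 2 that then stood alone had 0 thinned ctsl.1 transcripts, and without any other library it was 1.98 to 3.14.

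Wells left out of the comparisons by the grna.2 gate also held invariant chain transcripts. Of 28 such wells in the injured libraries, 25 (89.3%, exact 95% interval 71.8 to 97.7%) had a cd74a or cd74b transcript, with up to 144.4 in a well. In the uninjured library this was so in 1 of 10 such wells, and in granulocyte-gated wells of the injured libraries in 21 of 232. grna.2 is a granulin gene that marks metaphocytes of zebrafish skin. Class II genes were present in these 28 wells as well, with mhc2daa in 11 and mhc2dab in 6. Median totals were 4549 transcripts in the grna.2-gated and 4199 in the granulocyte-gated injured wells, and 7869 in the grna.2-gated uninjured wells.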

How the results depend on the processing

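The count of genes called between cd74-high and cd74-zero wells was 18, and 14 to 21 under other scalings, thinning depths, draws, filters and limits on wells. It was 4 with DESeq2, 1 with no library block, and 29 with DESeq2 without thinning. It ranged from 6 to 31 with each library left out, and from 6 to 46 with each left out without thinning (36 without 3 dpi replicate 2). Over 33 named genes there were 650 pairs of gene and setting. Of these, 396 kept direction and status (called or not called), 250 lost the call and 4 reversed. The 396 include pairs of cd83 and CD81, which were called in 0 of 28 settings and had no call to keep. Reversals were seen for ccl35.2 (-0.10) and cd83 (-0.27) with no filter on low counts, where the median of all genes was -1.0. CD81 reversed with cd74 at 0.1% and 3 transcripts (0.0467) and without 1 dpi replicate 2 (0.0481), and had -0.289 without 3 dpi replicate 2. Both class II genes kept their direction in each setting that tested them. Where the filter on low counts was used, they entered through the cd74-high sums, so that direction was favoured in advance. They were not tested in the main thinned fit or without 2 dpi. The share difference of 17.4 points was 21.9 with wells thinned to 1000 and 1 cd74 transcript enough, 10.9 with cd74 at 0.1% and 3 transcripts, 15.1 with no gates, and 15.7 to 19.2 with each library left out.

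For 3 dpi against 1 dpi within cd74-high wells, calls numbered 10 without thinning and 8 with library size alone, which moved the median of all genes to -0.09, against 0.25. They numbered 0 with DESeq2 (20 genes at an unadjusted p under 0.05), with no filter (313) and with each library left out (14 to 132). With the replicate number as a block, 0 genes were called (52 at an unadjusted p under 0.05), and si:dkey-6n3.3 had -3.06. The correlation between 1 dpi and 3 dpi of the difference between replicates 1 and 2 was 0.03 over 877 genes, so the numbers are not shown to pair the libraries. For the interaction, calls numbered 2 with library size alone, 0 with DESeq2 (15 at an unadjusted p under 0.05) and 0 to 1 with each library left out. Without thinning, the interaction called 1 of 4312 genes, which was lower and was not ctsl.1. Depth limits the low genes: class II transcripts were few per well, with 177 of mhc2daa in 64 cd74-high wells and 77 of mhc2dab in 37. A gene not detected in a well may be present. The causes of these changes were not tested.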

Other observations

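The 25 cd74-high wells of the uninjured library entered no test, since there was 1 such library and it came from whole larvae. Their invariant chain level had a median of 15 transcripts per well (range 3 to 110) and 0.235% of the total, with 61.7% of the transcripts from cd74a. mhc2daa was present in 12 of 25 cd74-high wells, against 4 of 178 cd74-zero wells, and mhc2dab in 10 of 25, against 1 of 178. Per thinned well, si:ch73-308b14.1 averaged 8.56 in cd74-high and 2.21 in cd74-zero wells, cd83 averaged 2.72 and 1.06, cd40 averaged 0.32 and 0.107, and apoeb averaged 0.08 and 1.33. These differences had the same direction as in the injured libraries, except that cd40 ran the other way at 1 dpi replicate 2. RUNX3 was present in 9 of 25 cd74-high and 16 of 178 cd74-zero wells. At least 5 transcripts of ENSDARG00000079736 were present in 1 of 25 cd74-high, 1 of 76 between and 3 of 178 cd74-zero wells, so in whole uninjured larvae most of these few wells had no detected invariant chain transcript.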
